A study of Homo sapiens with 9 samples.

Results

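The enzymes that build purine and pyrimidine nucleotides from small precursors were followed in Huh7, a cell line established from a human hepatocellular carcinoma, after treatment with PGG, a pentagalloyl glucose found in plants. The genes were PPAT, GART, PFAS, PAICS, ADSL, ATIC, IMPDH2, GMPS, CAD and NME1, that is 10 of the 19775 genes measured, and they were taken as every probe set that the platform annotation pairs with one of these symbols and with no other gene, 26 probe sets of 41091. RNA was measured on 9 Affymetrix arrays, 3 for cells kept in the solvent PBS for 48 hours, 3 for 6 hours with PGG at 0.1 mg/mL and 3 for 48 hours with the same dose. The arrays of a group are called biological replicates by the labels, which do not say whether they came from separate cultures, so the p-values measure the spread between these arrays. The sample titles and the study's methods give 48 hours for the PBS arrays, while the labels' descriptions give 0 hours. The titles were followed here. If the descriptions were right, treatment and time in culture could not be told apart at 48 hours either. No PBS array of 6 hours was analysed, and where PGG at 6 hours is set against PBS the treatment and the time in culture cannot be told apart. Where PGG at 48 hours is set against PGG at 6 hours, length of treatment and time in culture cannot be told apart either.

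Cells make purines on an activated ribose. PPAT commits the ribose to the pathway, and GART, PFAS, PAICS, ADSL and ATIC build the ring on it until inosine monophosphate (IMP) is reached, using glycine, glutamine, aspartate and formyl groups carried by folate. IMPDH2 and GMPS then turn IMP into the guanine nucleotide GMP. CAD, a single large protein with several activities, starts the pyrimidine ring, and NME1 is a nucleoside diphosphate kinase that passes phosphate between nucleotides. Growing cells depend on these routes, and several of the genes are described as targets of the transcription factor MYC, which the study addressed.

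Among the markers of hepatocytes and hepatoma cells, ALB read 13.42 to 13.54 and AFP 13.06 to 13.55 on the log2 scale over the 9 arrays, and the 8 markers measured all lay at or above the percentile 83.5 of the mean signal of all probe sets. The leukocyte marker PTPRC read 3.27 to 3.53 and the endothelial marker CDH5 3.06 to 3.52, and the 9 leukocyte, fibroblast and endothelial markers measured lay at percentiles 15.7 to 78.6, COL1A1 being the highest. The correlation between arrays of a group across probe sets was 0.993 to 0.998. The signal of the 3′ control probe set of ACTB minus that of its 5′ control, which rises as RNA degrades, was 1.35 ± 0.34 in PBS, 1.17 ± 0.05 after 6 hours of PGG and 2.95 ± 0.97 after 48 hours (log2 units, mean ± SD, n = 3 each). It was highest in PGG 48 h replicate 2, at 4.03, and this array alone stood apart by the GAPDH controls, at 1.83 against 0.13 to 0.39 on the others. From group to group the results at 48 hours move with the ACTB measure, and its part in them was not tested. Values without PGG 48 h replicate 2 follow below.

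The start sites of the genes were read from RefSeq on GRCh38.p14, in windows of 250 bases before to 50 bases after each start, since MYC and its partners are known to bind the E-box, CACGTG. Of the 10 genes, 8 were matched in 12 windows, and ADSL and IMPDH2 were not. The first stretch shown lies between the starts of PPAT and PAICS, which point away from each other and whose transcripts did not move alike. PPAT (chr4:56393362-56435615) starts at 56435615 on the minus strand, and the nearest of 3 listed PAICS starts is at 56435752 on the plus strand, 137 bases away. PAICS has a further listed start at 56410507, inside PPAT, so the 2 loci overlap and the stretch lies within the PAICS locus as RefSeq bounds it. The stretch is chr4:56435616-56435751, 136 bases between these start sites read on the plus strand, with the 3 copies of GGGCGG, the letters of the GC box read by SP1, in capitals.
PPAT to PAICS: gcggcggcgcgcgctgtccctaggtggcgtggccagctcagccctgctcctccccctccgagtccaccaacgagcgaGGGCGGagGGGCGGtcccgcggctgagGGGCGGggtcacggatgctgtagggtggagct

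The following short stretches are shown because they hold the E-box letters, in capitals, in 4 of the 8 genes. The site of PPAT, chr4:56435780-56435809 on the minus strand, lies at position -182 from the PPAT start and is the same site that lies at position 41 of the nearest PAICS transcript, counted from 1 at its start. ATIC has a site at position -46, in chr2:215312001-215312030, and another at position 30 of the transcript, in chr2:215312076-215312105. NME1 has a site at position 35 of the transcript, in chr17:51153581-51153608, and these 3 stretches are on the plus strand.
PPAT: aacggagatttcCACGTGcagcaaatacag
ATIC upstream: gggccggcgggcCACGTGataagcccggaa
ATIC downstream: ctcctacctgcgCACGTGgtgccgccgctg
NME1: agtgctgcgaacCACGTGggtcccgggc

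The letters CACGTG, which read the same on both strands, were in 7.26% of all 35116 windows and 8.77% of all genes with a window. The related CACGCG, searched on both strands, was found at position -17 of PFAS and in 13.5% of all genes. GGGCGG, on either strand, was in the windows of PPAT, GART, PFAS, PAICS, ATIC, GMPS and CAD and in 48.3% of all genes. CCAAT, on either strand, was in those of GART, CAD and NME1 and in 39.7% of all genes, and TGCGCA, which reads the same on both strands, in those of ATIC and NME1 and in 9.76%. The TGCGCA of ATIC overlaps the downstream CACGTG of ATIC. A match gives letters only, and no binding was measured on these arrays.

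After 48 hours of PGG the RNA of 9 of the 10 genes was lower than in PBS, and that of none was higher, by the probe set with the highest mean of each gene (adjusted p under 0.05 from limma). Over all genes 23.2% were lower by the same test and 22.9% higher. The median log2 difference of the 10 was -1.39, against -0.02 over all genes. After 6 hours 6 were lower and 2, PAICS and GMPS, were higher, against 15.5% of all genes in each direction, and the median of the 10 was -0.27, against 0.01 over all genes. The shares over all genes include genes of low signal. With a filter on low signal, of 12619 genes 3055 were lower and 3188 higher at 6 hours, and 4288 lower and 4186 higher at 48 hours. Of the 10, 6 were then lower and 3 higher at 6 hours, and 9 lower and 0 higher at 48 hours. In these bulk samples fewer cells that make a transcript and less of it per cell cannot be told apart. Without PGG 48 h replicate 2 the count at 48 hours was again 9 lower and 0 higher. The 3 PGG arrays of 48 hours all lay below the 3 PBS arrays for 9 genes and above them for 0, against 26.5% and 25.3% of all genes. At 6 hours 7 lay below and 3 above, against 22.1% and 23.0%. The arrays of 48 hours lay below those of 6 hours for 9 genes and above for 0, against 26.7% and 25.8%.

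**Figure D1:**
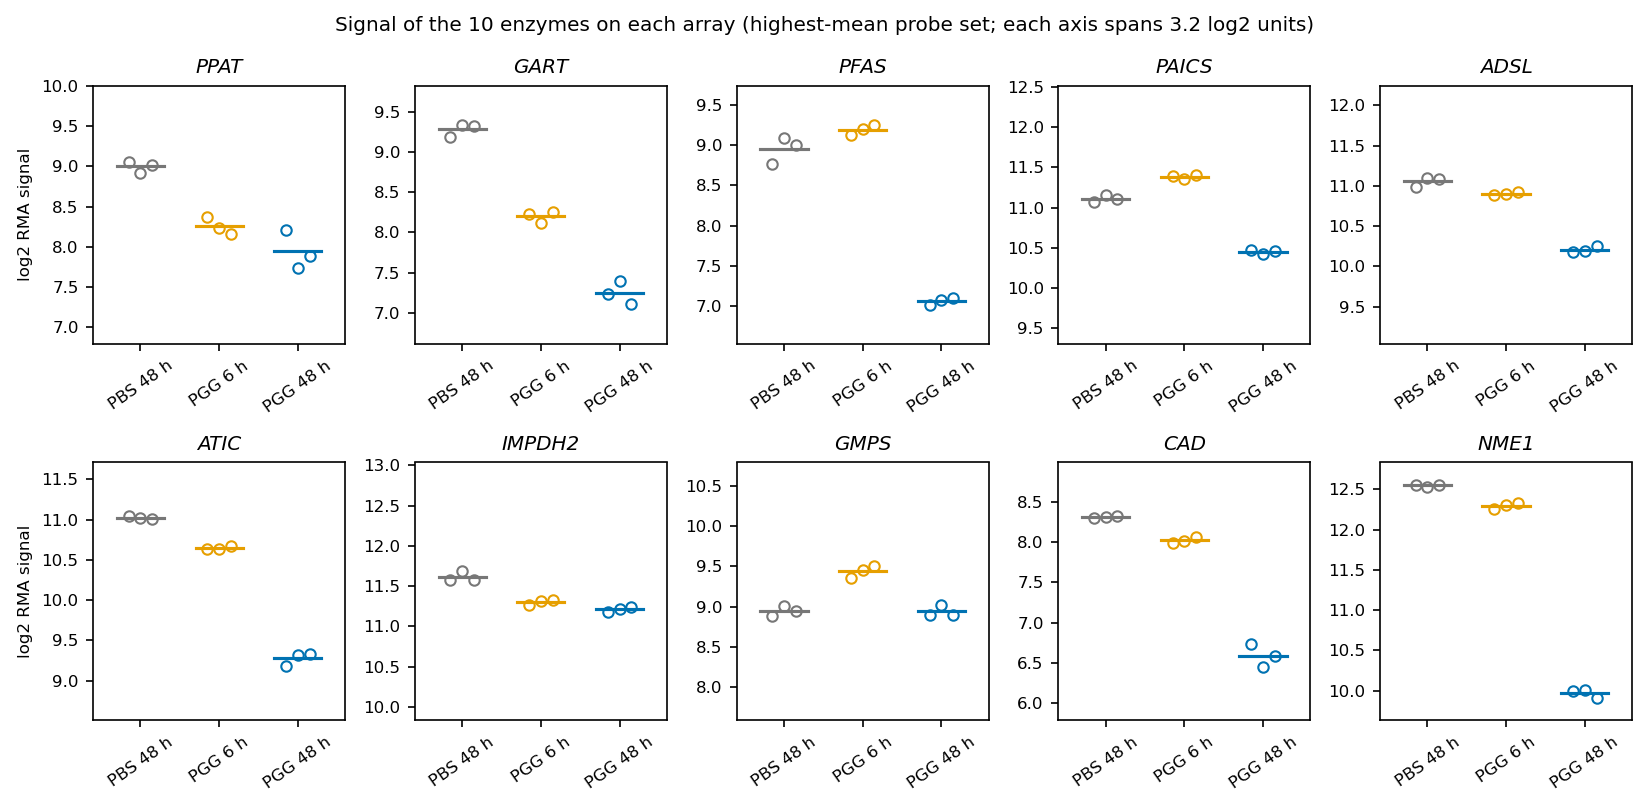
Log2 RMA signal of the 10 enzymes on the 9 arrays, each by the probe set of highest mean. An open circle is 1 array, lines are means of 3 arrays, colours mark PBS at 48 hours (grey), PGG at 6 hours (orange) and PGG at 48 hours (blue), and every panel spans 3.2 units. The PGG 48 h arrays lie below every PBS array in 9 panels and overlap them for GMPS.

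The first enzymes of the purine route fell at both times. PPAT, the committing amidotransferase, read 9.06, 8.92 and 9.02 in PBS, 8.37, 8.24 and 8.16 in PGG at 6 hours and 8.21, 7.74 and 7.89 in PGG at 48 hours, as log2 signal. Every PGG array lay below every PBS array, whereas the ranges at 6 and 48 hours overlapped. PPAT fell by 0.74 at 6 hours (standard error 0.11, adjusted p = 5.1e-04 from limma) and fell by 1.05 at 48 hours (standard error 0.11, adjusted p = 1.5e-05 from limma). The log2 difference between the 2 times was -0.31 (95% interval -0.56 to -0.06, adjusted p = 0.051 from limma). Its second probe set fell by 0.47 and 0.83 and differed between the times (-0.36, adjusted p = 0.0047 from limma), while the remaining one, with a mean signal of only 4.94 over the arrays, had log2 differences of 0.28 and 0.15 (adjusted p = 0.18 and 0.46 from limma).

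GART (chr21:33503931-33542893), a trifunctional protein that adds glycine and a formyl group and closes the first ring, read 9.19, 9.33 and 9.32 in PBS, 8.23, 8.12 and 8.26 at 6 hours and 7.23, 7.40 and 7.11 at 48 hours. By this probe set the groups did not overlap, with a step down at each time. GART fell by 1.08 at 6 hours (standard error 0.08, adjusted p = 5.4e-06 from limma) and fell by 2.03 at 48 hours (standard error 0.08, adjusted p = 1.2e-08 from limma), which is 4.09-fold lower, and the difference between the times was -0.96 (adjusted p = 4.0e-06 from limma). GART was measured by 9 probe sets. At 48 hours 7 of them fell, by 0.59 to 2.36, and at 6 hours 6 fell, by 0.58 to 1.49, while 1 of low signal, 236969_at, rose by 0.57 (adjusted p = 0.015 from limma). Another, 210005_at, did not change by the test at 6 hours (0.01, adjusted p = 0.96 from limma) and fell by 0.84 at 48 hours. Of the 7 that fell at 48 hours, 4 were lower at 48 than at 6 hours, whereas 230097_at, 230766_at and 244822_at showed no step between the times that passed the test, with log2 differences of 0.12, -0.04 and -0.01 (adjusted p = 0.70, 0.80 and 0.95 from limma).

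The following steps showed the fall at 48 hours. At 6 hours PFAS, PAICS and ADSL showed little or an opposite difference, while ATIC also fell, by less than at 48 hours. PFAS, the glutamine-dependent enzyme that follows, read 8.76, 9.09 and 9.0 in PBS, 9.13, 9.20 and 9.25 at 6 hours and 7.02, 7.08 and 7.10 at 48 hours. Its 6 hour arrays were just above the highest PBS array, and its 48 hour arrays far below the lowest. The log2 difference was 0.24 at 6 hours (95% interval 0.05 to 0.43, adjusted p = 0.065 from limma), and PFAS fell by 1.88 at 48 hours (standard error 0.09, adjusted p = 2.3e-08 from limma).

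PAICS (chr4:56410507-56464578), a bifunctional carboxylase and ligase, read 11.07, 11.15 and 11.11 in PBS, 11.39, 11.36 and 11.40 at 6 hours and 10.47, 10.42 and 10.46 at 48 hours. The groups did not overlap, with the 6 hour arrays highest and the 48 hour arrays lowest. PAICS rose by 0.27 at 6 hours (standard error 0.06, adjusted p = 0.0048 from limma) and fell by 0.66 at 48 hours (standard error 0.06, adjusted p = 3.3e-06 from limma). A second probe set rose by 0.34 and then fell by 0.58 (adjusted p = 0.0042 and 4.1e-05 from limma), and the remaining one, with a mean signal of 3.71, had a log2 difference of 0.03 at 6 hours and fell by 0.63 at 48 hours. PAICS was thus higher at 6 hours, when PPAT, whose start faces the nearest PAICS start across the 136 bases shown above, was lower, and both were lower at 48 hours.

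ADSL, a lyase used in making both IMP and AMP, read 10.98, 11.10 and 11.09 in PBS, 10.88, 10.90 and 10.92 at 6 hours and 10.18, 10.19 and 10.25 at 48 hours. The log2 difference was -0.16 at 6 hours (95% interval -0.29 to -0.02, adjusted p = 0.097 from limma), and ADSL fell by 0.85 at 48 hours (standard error 0.06, adjusted p = 7.1e-07 from limma). ATIC, the bifunctional enzyme that completes IMP, read 11.04, 11.02 and 11.01 in PBS, 10.63, 10.63 and 10.67 at 6 hours and 9.18, 9.32 and 9.33 at 48 hours, with no overlap between groups. ATIC fell by 0.38 at 6 hours (standard error 0.06, adjusted p = 0.0010 from limma) and fell by 1.75 at 48 hours (standard error 0.06, adjusted p = 5.0e-09 from limma).

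Of the 6 genes of IMP synthesis, 3 fell, 1 rose and 2 did not pass the test at 6 hours, and all 6 fell at 48 hours, with a median log2 difference of -1.40. The falls at 48 hours ranged from 0.66 for PAICS to 2.03 for GART. Between the 2 times 5 of the 6 were lower at 48 hours by the test, and PPAT, at -0.31, narrowly missed it. The ACTB control difference beside these values was 2.14, 4.03 and 2.67 on the PGG 48 h arrays. Without replicate 2 the log2 differences at 48 hours were -0.95 for PPAT, -2.11 for GART, -1.89 for PFAS, -0.65 for PAICS, -0.84 for ADSL and -1.77 for ATIC.

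**Figure D2:**
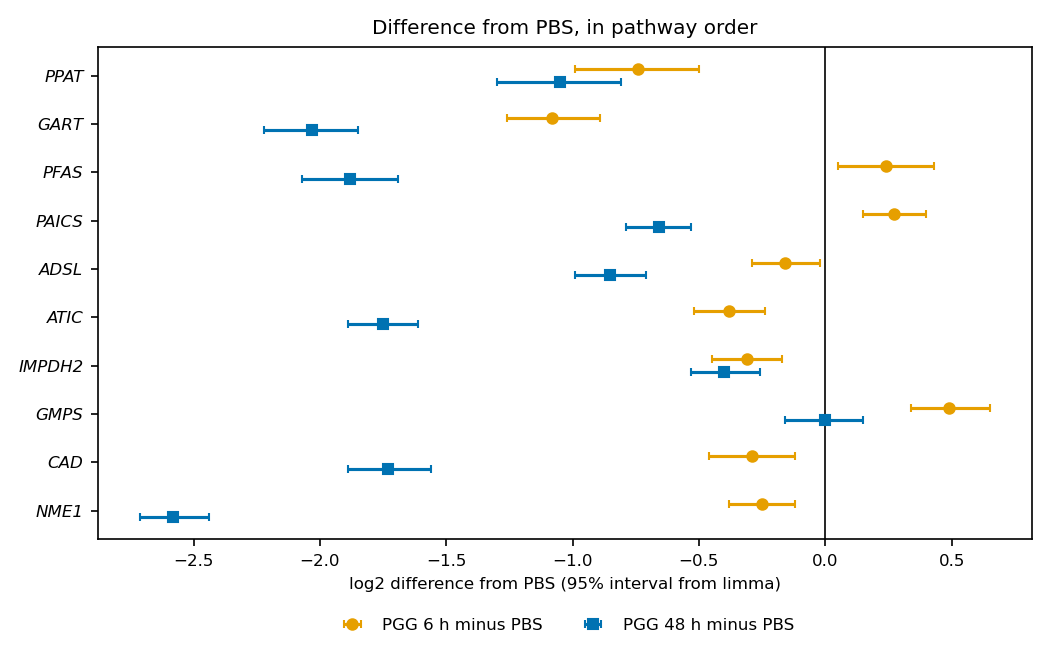
Log2 difference from PBS of the 10 enzymes, listed in pathway order, for PGG at 6 hours (orange circles) and PGG at 48 hours (blue squares), 3 arrays per group. Bars are 95% intervals from limma. At 48 hours 9 intervals lie below 0 and that of GMPS, -0.16 to 0.15, spans it.

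The enzymes that lead from IMP to GMP had the smallest differences at 48 hours by their highest-mean probe sets, and for GMPS the probe sets disagreed. IMPDH2, the rate-limiting dehydrogenase of this branch, read 11.57, 11.69 and 11.57 in PBS, 11.26, 11.31 and 11.33 at 6 hours and 11.18, 11.22 and 11.24 at 48 hours. All PGG arrays were below all PBS arrays, and the times stood close together. IMPDH2 fell by 0.31 and, at 48 hours, fell by 0.40 (standard error 0.06 each, adjusted p = 0.0035 and 3.3e-04 from limma), with a difference between the times of -0.09 (95% interval -0.22 to 0.05, adjusted p = 0.34 from limma). IMPDH1, its paralog, had log2 differences of 0.08 and -0.10 (adjusted p = 0.56 and 0.37 from limma).

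GMPS, the glutamine-dependent GMP synthetase, read 8.88, 9.01 and 8.94 in PBS, 9.36, 9.45 and 9.50 at 6 hours and 8.90, 9.02 and 8.90 at 48 hours by its highest-mean probe set, 214431_at. By this probe set GMPS rose by 0.49 at 6 hours (standard error 0.07, adjusted p = 3.2e-04 from limma) and stood at a log2 difference of 0.00 at 48 hours (95% interval -0.16 to 0.15, adjusted p = 0.98 from limma). The probe set 229333_at read 8.09, 8.33 and 8.29 in PBS, 7.93, 7.91 and 7.97 at 6 hours and 5.51, 5.48 and 5.08 at 48 hours. It had a log2 difference of -0.30 at 6 hours (adjusted p = 0.081 from limma) and fell by 2.88 at 48 hours (adjusted p = 7.6e-09 from limma). The probe set 236648_at fell by 0.38 and fell by 1.19. The 3 probe sets of GMPS therefore gave no common direction at 6 hours, and at 48 hours a range from no detectable difference to a value larger than that of any other probe set of the 10 genes. With the mean of the 3, GMPS had log2 differences of -0.06 at 6 hours (adjusted p = 0.61 from limma) and -1.36 at 48 hours (adjusted p = 4.4e-08 from limma). Which part of the transcript each probe set reads was not analysed here.

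**Figure D3:**
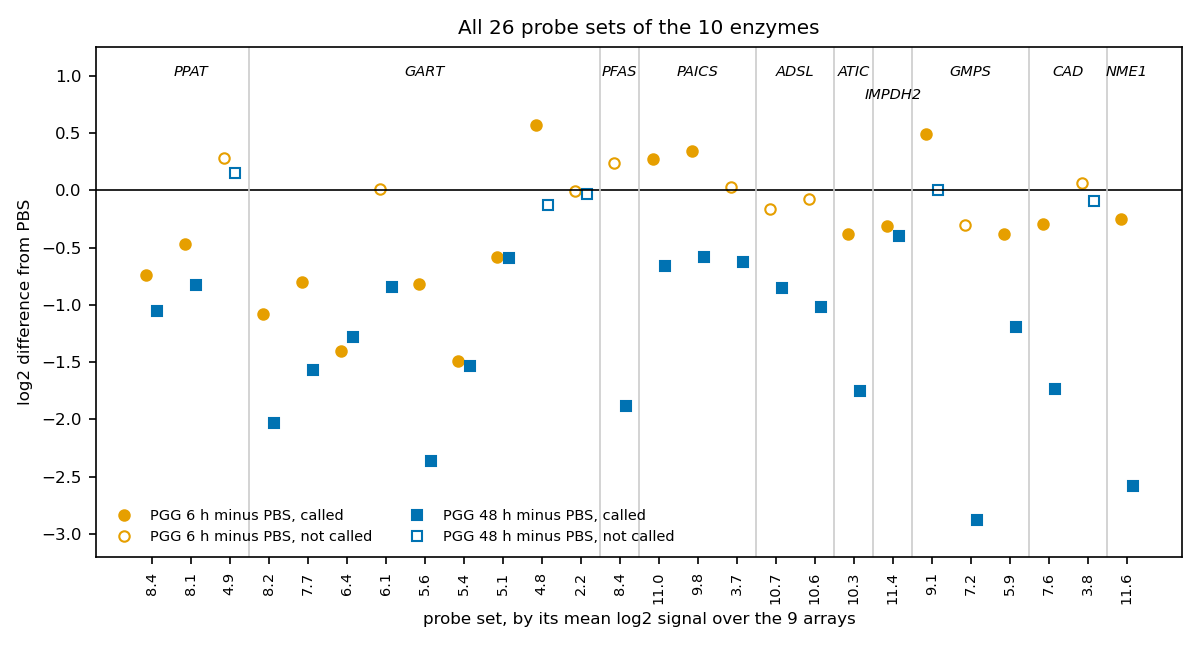
Log2 difference from PBS of all 26 probe sets of the 10 enzymes, grouped by gene and ordered within a gene by mean log2 signal over the 9 arrays, which the horizontal axis gives. Circles stand for 6 hours of PGG and squares for 48 hours, filled at an adjusted p under 0.05. GART has 9 probe sets, and the 3 of GMPS run from 0.00 to -2.88 at 48 hours.

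Counted by probe set, 21 of the 26 were lower and 0 higher at 48 hours, against 20.2% and 18.8% of all 54613 probe sets tested, and 13 were lower and 4 higher at 6 hours, against 12.5% and 12.2%. Between the times 18 were lower at 48 hours and 0 higher, against 18.4% and 18.0%. Probe sets of 1 gene are not independent measurements. Of the 5 that did not pass at 48 hours, 4 had a mean signal between 2.25 and 4.94, in a table whose median lay between 5.16 and 5.20 on each array, and the other was 214431_at of GMPS. Without PGG 48 h replicate 2 the probe sets called at 48 hours were again 21 lower and 0 higher.

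CAD, which starts the pyrimidine ring (chr2:27217369-27243943), read 8.30, 8.31 and 8.33 in PBS, 7.99, 8.02 and 8.06 at 6 hours and 6.73, 6.45 and 6.58 at 48 hours. The groups did not overlap. CAD fell by 0.29 at 6 hours (standard error 0.08, adjusted p = 0.016 from limma) and fell by 1.73 at 48 hours (standard error 0.08, adjusted p = 1.7e-08 from limma). At 6 hours the call was lost without PGG 6 h replicate 1 (adjusted p = 0.059 from limma) or replicate 2 (adjusted p = 0.051 from limma). Its other probe set, with a mean signal of 3.77, passed at neither time (0.06 and -0.09).

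NME1 (chr17:51153559-51162168) had the largest difference at 48 hours among the highest-mean probe sets of the 10. It read 12.56, 12.53 and 12.56 in PBS, 12.26, 12.31 and 12.33 at 6 hours and between 9.91 and 10.01 on the 3 arrays of 48 hours, with no overlap between groups. NME1 fell by 0.25 at 6 hours (standard error 0.06, adjusted p = 0.010 from limma) and by 48 hours stood 5.97-fold lower than in PBS (log2 difference -2.58, standard error 0.06, adjusted p = 5.9e-10 from limma). Of the other NME genes 4 were measured. At 48 hours the mitochondrial NME4 was 2.97-fold lower than in PBS (limma adjusted p = 1.6e-08) and NME3 was 2.83-fold lower (limma adjusted p = 3.2e-08), while at 6 hours their log2 differences were 0.10 and -0.16. At 48 hours NME5 was at -0.05 and NME6 at 0.03 (limma adjusted p = 0.61 and 0.79), and none of the 4 passed at 6 hours. NME2, the close copy and neighbour of NME1, had no probe set of its own here, and whether its transcript adds to the NME1 signal was not tested. Without PGG 48 h replicate 2 the log2 differences at 48 hours were -2.60 for NME1, -1.66 for CAD, -0.40 for IMPDH2 and -0.04 for GMPS.

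At the cut-offs of the methods, adjusted p under 0.005 with a log2 difference of more than 1.5, 5 of the 10 genes were lower at 48 hours, GART, PFAS, ATIC, CAD and NME1, against 2.12% of all genes lower and 3.08% higher. Without PGG 48 h replicate 2 the number past these cut-offs at 48 hours was again 5. None passed these cut-offs at 6 hours, when 0.541% of all genes were lower and 0.349% higher. Compared directly, 8 of the 10 were lower at 48 than at 6 hours and 0 were higher, against 22.0% of all genes lower and 22.4% higher, and PFAS (-2.13, adjusted p = 1.4e-08 from limma) and NME1 (-2.33, adjusted p = 1.3e-09 from limma) were the furthest apart. At the methods' cut-offs these 2 were lower, against 1.55% of all genes lower and 2.53% higher. PPAT, narrowly (adjusted p = 0.051 from limma), and IMPDH2 did not pass. Between these groups the length of treatment and the time in culture differ together. The 2 comparisons with PBS share the PBS arrays, so their values are given side by side only.

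MYC, measured by 1 probe set, stood -1.79 from PBS at 6 hours (limma adjusted p = 2.6e-07) and -1.86 at 48 hours (limma adjusted p = 3.4e-08) on the log2 scale, the latter being -1.95 without PGG 48 h replicate 2. The median of the 10 genes was -0.27 at 6 hours and -1.39 at 48 hours. Of the 4 genes with CACGTG in the window, the log2 differences at 48 hours were -1.05 for PPAT, -0.66 for PAICS, -1.75 for ATIC and -2.58 for NME1. Of the 4 without it in the window they were -2.03 for GART, -1.88 for PFAS, -1.73 for CAD and 0.00 for GMPS. Each window ends 50 bases after the start, and letters beyond the windows were not searched. The ranges of both sets overlapped, with 4 genes in each.

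Among the other enzymes of the same routes both directions occurred. The counts of this list and of those that follow stand beside the shares over all genes given above, 15.5% in each direction at 6 hours and, at 48 hours, 22.9% higher and 23.2% lower. Without PGG 48 h replicate 2 the counts at 48 hours were the same but for 6 in place of 7 lower in deoxynucleotide synthesis and 5 in place of 6 lower in salvage, and of the genes named from the lists SAMHD1 alone lost its call at 48 hours (from -0.26 to -0.23, adjusted p = 0.11 from limma). Of 19 such genes 17 were measured, of which 6 rose and 3 fell at 6 hours, while 3 rose and 8 fell at 48 hours, with medians of 0.08 and -0.13. CTPS1, which makes CTP, rose by 1.12 at 6 hours (adjusted p = 7.4e-04 from limma) and fell by 2.45 at 48 hours (adjusted p = 6.9e-07 from limma), the widest swing in this list. CTPS2, its paralog, fell by 0.43 and fell by 1.31, and AK6, an adenylate kinase, fell by 0.61 and fell by 0.77. GUK1, the kinase of GMP, rose by 0.66 and by 1.37 (1.66 without PGG 48 h replicate 2), although its other probe set, of low signal, passed at neither time (0.08 and 0.14). PRPSAP1, which binds the enzyme that makes the activated ribose, rose by 0.71 at 48 hours, and PRPS1, that enzyme itself, rose by 0.59 at 6 hours, then fell by 0.68. PRPS1 was named after its values had been seen.

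Deoxynucleotide synthesis feeds DNA replication. The list drawn up for it also holds DCTPP1 and SAMHD1, which break deoxynucleotides down, and both are counted here. Of 9 genes measured, 7 were higher and 0 lower at 6 hours, with a median of 0.32, while DCTD (-0.05) and SAMHD1 (0.13) did not pass, and 2 were higher and 7 lower at 48 hours, with a median of -0.66. RRM2, the small subunit of ribonucleotide reductase, rose by 2.23 at 6 hours (adjusted p = 1.1e-07 from limma) and by 0.69 at 48 hours, but its other probe set rose by 1.74 and then fell by 0.72. TYMS, thymidylate synthase, rose by 0.60 at 6 hours, then fell by 0.66 relative to PBS at 48 hours. At 48 hours DCTPP1 fell by 1.21 and DTYMK, the kinase of dTMP, fell by 1.10, while RRM2B, the p53-inducible small subunit, rose by 0.90.

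Salvage and uptake of nucleobases and nucleosides was covered by 12 of 13 genes, of which 2 rose and 2 fell at 6 hours, while 0 rose and 6 fell at 48 hours, with medians of 0.02 and -0.28. APRT, which salvages adenine, fell by 0.35 and fell by 2.17 (adjusted p = 0.012 and 9.0e-09 from limma). HPRT1, which salvages hypoxanthine and guanine, rose by 0.33 at 6 hours and was at -0.62 at 48 hours (adjusted p = 1.6e-04 from limma). TK1, thymidine kinase, rose by 1.19 at 6 hours and stood at -0.19 at 48 hours (adjusted p = 0.55 from limma). Without PGG 48 h replicate 2 TK1 stood at 0.14 at 48 hours, and by its other probe set it rose by 1.27 and stood at 0.17. The nucleoside transporter SLC29A2 fell by 0.92 at 6 hours and by 0.83 at 48 hours. At 6 hours 1 further probe set of SLC29A2 fell by 0.85 and 1 rose by 0.40. SLC29A1, another such transporter, fell by 0.92 at 48 hours, when its arrays ran from 5.53, on PGG 48 h replicate 2, to 6.87. Without that array SLC29A1 fell by 0.54.

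For nucleotide breakdown 21 of 22 genes were measured, of which 2 rose and 4 fell at 6 hours, while 5 rose and 7 fell at 48 hours, with medians of -0.05 and -0.12. The list held the widest spread at 48 hours. NT5E, the ecto-enzyme that makes adenosine, fell by 3.39 (adjusted p = 5.2e-10 from limma), with -0.68, -1.07 and 0.20 by its other probe sets, and NT5C fell by 0.79. CDA, cytidine deaminase, rose by 2.97 (adjusted p = 2.7e-09 from limma) after it had fallen by 0.39 at 6 hours, and AMPD3, an AMP deaminase, rose by 2.47. At 6 hours AMPD2 rose by 0.97 and GDA, guanine deaminase, by 0.96, whereas NT5C3A fell by 0.73. AMPD2 was also higher at 48 hours, by 1.10, while GDA (0.00) and NT5C3A (-0.12) did not pass then. UPP1, uridine phosphorylase, fell by 0.98 at 6 hours, whereas it rose by 0.94 at 48 hours.

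Supply routes were described by a pair of lists. For ribose phosphate 7 of 8 genes were measured, of which 2 rose and 3 fell at 6 hours, while 1 rose and 5 fell at 48 hours, with medians of -0.08 and -0.71. RPIA, which makes ribose 5-phosphate, fell by 0.43 and fell by 1.38, and PGLS fell by 0.65 and fell by 0.77. TALDO1, transaldolase, fell by 1.30 at 48 hours, and PGD rose by 0.24 at 6 hours but fell by 0.47 at 48 hours. RBKS, ribokinase, rose at both times, by 0.37 and 0.30. For formyl groups, glutamine and aspartate 11 of 15 genes were measured, of which 0 rose and 5 fell at 6 hours, while 1 rose and 7 fell at 48 hours, with medians of -0.07 and -0.38. The folate enzymes ALDH1L2, SHMT2 and ALDH1L1 fell by 3.79, 0.93 and 0.80 at 6 hours and by 2.22, 0.30 and 1.45 at 48 hours. ALDH1L2 and ALDH1L1 use up the formyl groups carried by folate, so their falls, counted in this list, do not stand for less supply. GLUL, glutamine synthetase, rose by 0.61 at 48 hours.

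**Figure D4:**
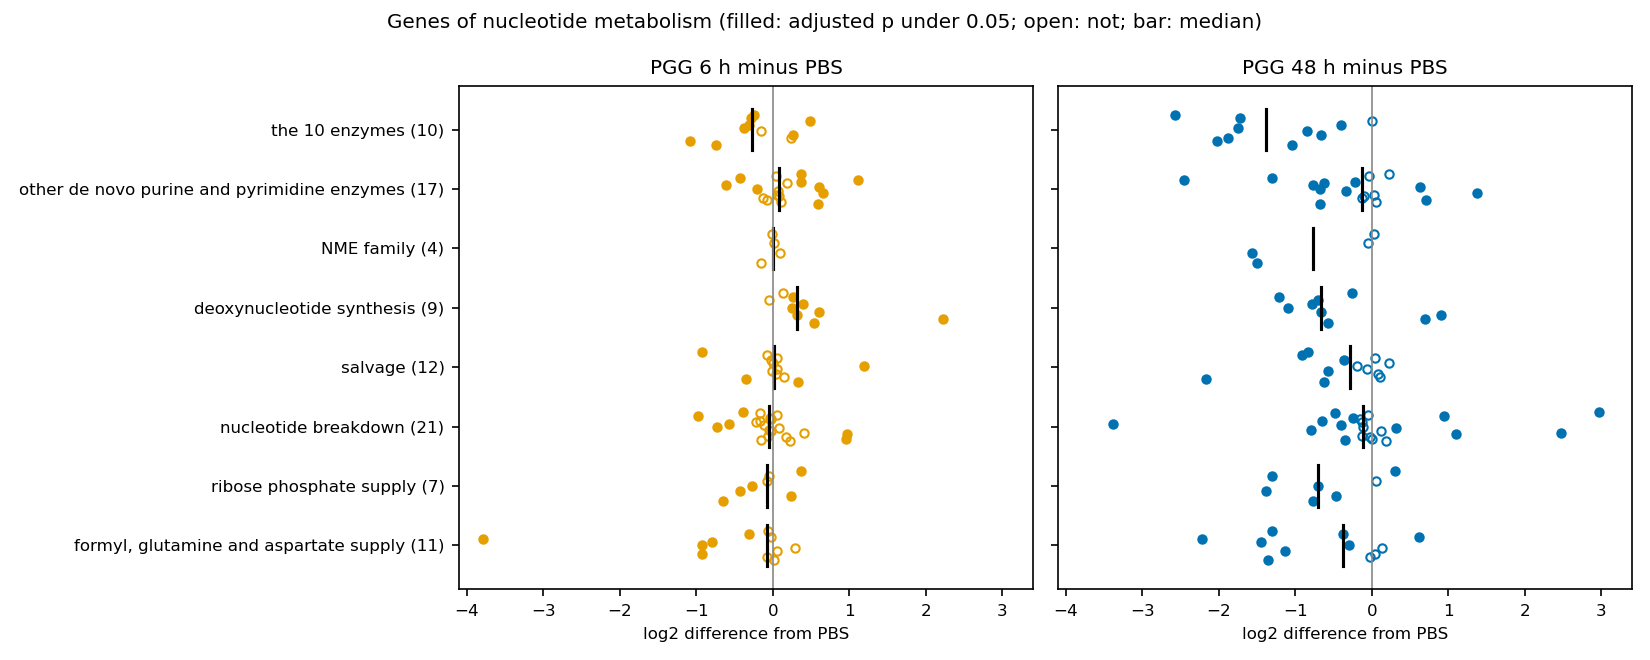
Log2 difference from PBS of the 10 enzymes and of 7 further lists of nucleotide metabolism, with PGG at 6 hours on the left and PGG at 48 hours on the right. Each circle is 1 gene by its highest-mean probe set, filled at an adjusted p under 0.05, vertical bars are medians and the number of genes measured follows each name. The median of the 10 enzymes, -1.39 at 48 hours, is lower than that of each other list, of which the NME family, at -0.78 over 4 genes, comes nearest. The 10 enzymes and the lists were chosen with earlier results of these data known, so this order depends on how they were drawn up.

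The genes outside these lists with the profile most like the mean of the 10 were sought among 3394 genes whose group means spanned at least 1 on the log2 scale. They were MRPL15 (Pearson correlation 0.999 over the 9 arrays), and DTD2, RRS1, RBM25 and NAXE (0.998 each). The 9 arrays form 3 groups, so such a correlation mainly reflects 3 group means. MRPL15, a protein of the mitochondrial ribosome, had log2 differences of -0.21 and -1.03, and RRS1, a ribosome assembly factor, -0.54 and -2.67.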

How the data were processed

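RNA of Huh7 cells on 9 Affymetrix arrays was analysed, 3 each for PBS at 48 hours and PGG at 6 and 48 hours, grouped by the sample titles. According to the submitters' processing notes the arrays were normalized by RMA with Expression Console (the sources used here do not give its version), and the authors deposited 1 log2 value per probe set and array. RMA equalizes the distributions of the arrays, so a change shared by all transcripts would not be seen. Of 54675 probe sets 62 controls were left out, and 41091 were paired with 1 symbol. Each gene took the probe set of highest mean over the 9 arrays. Groups were compared with limma 3.58.1 in R 4.3.3 (lmFit with 1 mean per group, eBayes), with Benjamini-Hochberg adjustment over 54613 probe sets, and called at an adjusted p under 0.05. The steps were tested on simulated data. The number of arrays limits the precision, and no counts exist.

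The members and lists were chosen with earlier results of these data known. Named were the 10 members, MYC, up to 2 rises and 2 falls per list and comparison with PBS among called genes with all treated arrays above or all below the PBS arrays, and the 5 genes most alike. Exceptions are stated. A further paralog or list member is named where a member is described. Alternatives were the replicate number as a block, each array left out, a filter on low signal, quantile and median scaling, other choices of probe set, adjustment over genes, the arrays of 2 groups only, array weights, the test and the cut-offs of the methods.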

Additional observations from a re-analysis of the deposited data

Results flagged for a closer look

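The differences from PBS at 6 and at 48 hours were compared by the direct test of PGG at 48 hours against PGG at 6 hours, and 8 of the 10 genes differed between the times at an adjusted p under 0.05 from limma. In this comparison the length of treatment and the time in culture cannot be told apart. The log2 differences, 48 hours minus 6 hours, were -0.96 for GART, -2.13 for PFAS, -0.93 for PAICS, -0.69 for ADSL, -1.37 for ATIC, -0.50 for GMPS, -1.44 for CAD and -2.33 for NME1. PAICS was called higher than PBS at 6 hours and lower at 48 hours, and for GMPS the value holds for 1 of 3 probe sets, the others giving -2.58 and -0.81. No test for outlying arrays was run, since each group held 3.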

How the results depend on the processing

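At the cut-offs of the methods, the 8 members called at 6 hours, 9 at 48 hours and 8 between the times became 0, 5 and 2, and the methods' t-test at these cut-offs also gave 0, 5 and 2. With the replicate number as a block the counts were 9, 9 and 9, adding PFAS at 6 hours (adjusted p = 0.045 from limma) and PPAT between the times (adjusted p = 0.020 from limma), and this block changed no other call of a member. Same-numbered arrays of different groups did not all deviate together, with correlations of -0.089 to 0.162, so the numbers were not taken to pair the arrays. With 1 array left out in turn the counts were 7 to 9 at 6 hours, 9 to 9 at 48 hours and 8 to 9 between the times. CAD lost its call at 6 hours without PGG 6 h replicate 1 or 2, at -0.27 and -0.29, PFAS gained one without PBS replicate 2, at 0.31, and PPAT gained one between the times without PGG 48 h replicate 1, at -0.44. PPAT also gained this call with adjustment over genes, the filter on low signal, the mean of all probe sets, array weights and quantile scaling. The choice of probe set reversed some values. With the mean of all probe sets GMPS was at -0.06 at 6 hours, CAD lost its call at 6 hours (-0.12, adjusted p = 0.097 from limma), and the differences shrank by over 1.5-fold for PPAT (-0.31 at 6 hours, -0.58 at 48 hours), GART (-0.62, -1.15) and, at 48 hours, CAD (-0.91). ADSL gained a call at 6 hours with array weights (adjusted p = 0.038 from limma) and quantile scaling (adjusted p = 0.046 from limma). Also, without probe sets whose names end in _x_at or _s_at PPAT was at 0.28 at 6 hours and 0.15 at 48 hours, by a probe set of low signal, PAICS at 0.03 at 6 hours, and ADSL and IMPDH2 had no value. PFAS at 6 hours passed under some settings and missed under others, with adjusted p from 0.029 to 0.22 over all of them. Of 270 values of members with an array left out, 266 kept their side of the threshold without a called value changing direction, and of 294 under the other settings 275 did. A value called in neither fit could change sign and still count as kept. GMPS at 48 hours was such a value, at -0.04 to 0.03 with an array left out.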
